A study of Mus musculus with 16 samples.

Results

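Nicotine was added to binge-like ethanol drinking in 4 adolescent mice (group NE), and their brains were set against those of 4 mice that drank the same ethanol solution after water (group Water-Ethanol). All 8 had ethanol, so the comparison shows nicotine on top of ethanol and not either drug against water. They were chosen as all mice that GEO's labels place in either group, 8 of the 16 in the series. All 8 were females of the inbred strain C57BL/6J and were killed at postnatal day 45. NE mice had 200 µg/ml nicotine in every bottle for 22 h per day over 10 days, and Water-Ethanol mice had water in the same bottles. On the last 4 days both groups were offered 20% v/v ethanol in the dark phase, for 2 h on the first days and for 4 h on the last day, with the nicotine bottles taken off the cage, so that no NE mouse had nicotine to drink in the last 4 h. The mice set their own intake, and intakes per mouse were not analysed here, so nicotine and the amount of ethanol drunk cannot be told apart. The other mice had water in place of ethanol, either with nicotine (NW, n = 4) or without (WW, n = 4), and are used below to show the same nicotine contrast without ethanol.

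Nicotine opens nicotinic acetylcholine receptors, ligand-gated cation channels built from alpha and beta subunits, on neurons that release dopamine, glutamate and GABA. Ethanol acts on many proteins, among them NMDA-type glutamate receptors, which it inhibits, and GABA-A receptors and potassium channels, which it can enhance. Both drugs activate the stress axis, whose end product, the glucocorticoid hormone, switches on a known set of genes through its nuclear receptor.

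RNA was taken from whole brains with the cerebellum, 1 library per mouse, and counted per gene. Total counts ran from 27100352 to 31919838 in NE and from 27577575 to 29566829 in Water-Ethanol. No 2 of the 8 libraries were identical. The largest component of variation, 29.1% of the variance, ran from Water-Ethanol replicate 15 to NE replicate 3 and did not separate the groups. Rn45s, the ribosomal RNA precursor, took 0.318% to 0.444% of counts in NE and 0.373% to 0.617% in Water-Ethanol, with overlapping ranges and a log2 fold change of -0.39 (SE 0.131) in NE against Water-Ethanol. Across 15034 genes the difference between the groups was related to the GC content of the transcript (Spearman's rho = 0.189, genes not being independent). Values corrected for it are given for some of the genes named below and not for all. In whole-brain RNA, fewer cells of a type and less RNA per cell cannot be told apart.

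Of the 24062 genes in the table, 15319 had enough reads to be tested. No gene passed the threshold: 0% (0 of 15319) had a Benjamini-Hochberg adjusted p under 0.05 by the quasi-likelihood test of edgeR. The smallest adjusted p was 0.298, for the NMDA receptor subunit gene Grin2b, and the next was 0.834. Before adjustment 888 genes, 5.8% of those tested, had a p under 0.05, of which 490 (3.2%) were higher and 398 (2.6%) lower in NE. A p under 0.05 is reached by 5% of genes when nothing differs. The number rested on single mice, since it was 564 (3.65%) without NE replicate 3 and 1503 (9.77%) without NE replicate 2. All 4 NE mice lay above all 4 Water-Ethanol mice in 313 genes (2.04%) and below them in 222 (1.45%).

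DESeq2 and edgeR's likelihood-ratio test each called 2 genes, Grin2b and Hif3a, and limma-voom called 0.

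The differences were small. The median size of the log2 fold change (NE over Water-Ethanol) was 0.05, and 99% of genes lay within 0.48. Its median standard error was 0.061. The 95% interval lay wholly within 0.25 of no change for 9894 genes (64.6%), within 0.5 for 13199 (86.2%) and within 1 for 15023 (98.1%). Genes split evenly by sign, with 7576 higher and 7743 lower in NE.

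**Figure D1:**
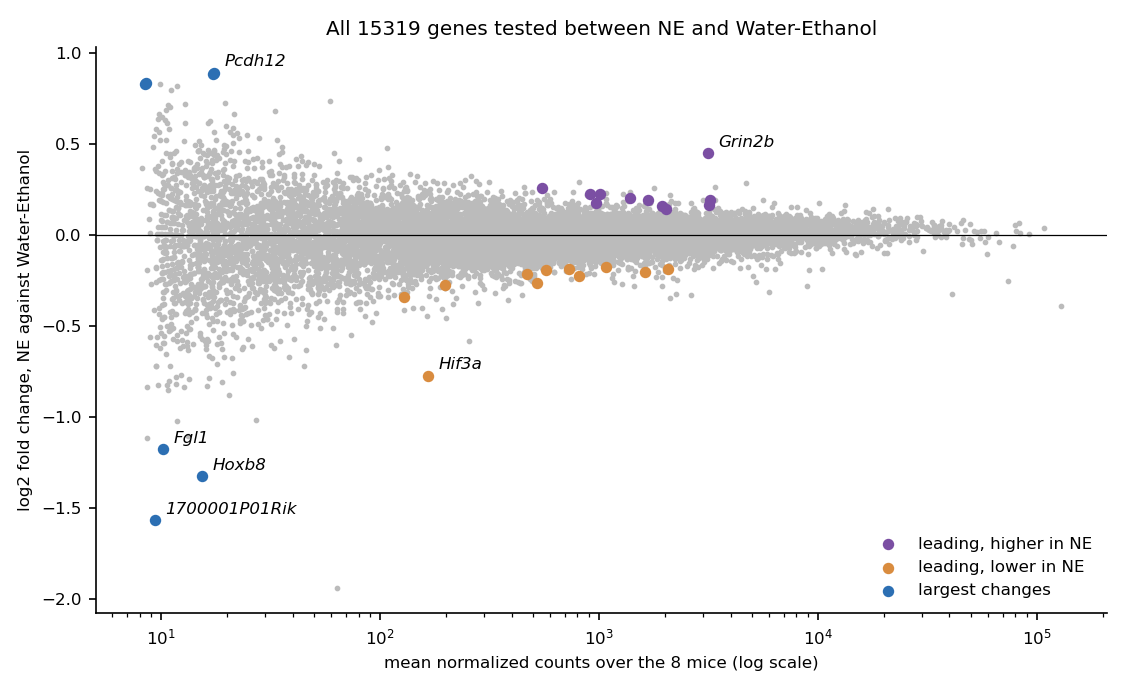
Each point is 1 of the 15319 genes tested, with its mean normalized counts over the 8 mice on the horizontal axis (log scale) and its log2 fold change, NE against Water-Ethanol, on the vertical axis. Purple and orange points are the leading genes named in the text, higher and lower in NE, and blue points the largest changes named there, which stand at low counts; Grin2b at 0.45 and Hif3a at -0.77 stand out from genes of similar level.

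Grin2b encodes the GluN2B subunit of the NMDA receptor, the calcium-permeable glutamate receptor of excitatory synapses, and lies on chromosome 6 from 135729805 to 136173511 (mm10). It was measured at 3087, 4057, 3537 and 3942 normalized counts (reads scaled to a common library size) in NE replicates 2 to 5. In Water-Ethanol replicates 13 to 16 it was at 2828, 2466, 2723 and 2654. Every NE mouse lay above every Water-Ethanol mouse, by the least in NE replicate 2. The means were 3656 ± 440 and 2668 ± 152 (SD, n = 4 each), which is 0.45 as log2 fold change (standard error, SE, 0.071, 95% interval 0.30 to 0.60), and the adjusted p was 0.298 by edgeR. The call turned with the method: DESeq2 gave an adjusted p of 1.45e-05, edgeR's likelihood-ratio test 2.98e-05 and limma-voom 0.448. In the quasi-likelihood test, leaving out NE replicate 2 gave 0.00268 and the fit of all 16 mice gave 0.999. With GC content corrected the log2 fold change was 0.46.

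Of the other NMDA receptor subunits, Grin2a, which encodes GluN2A (chromosome 16 from 9577710 to 9992533), stood at 1645, 2131, 1922 and 2080 in NE and at 1771, 1604, 1575 and 1547 in Water-Ethanol. The groups overlapped through NE replicate 2 alone, which was also the lowest NE mouse for Grin2b. The log2 fold change of Grin2a was 0.25 (SE 0.071, adjusted p = 0.834 by edgeR). The obligatory subunit gene Grin1 differed by 0.05 (95% interval -0.03 to 0.13). Of the 7 subunit genes, 5 were higher and 2 lower in NE, with a median log2 fold change of 0.03 against -0.001 over all genes tested, and 2, both higher, had an unadjusted p under 0.05, which 3.2% of all genes tested reached in that direction.

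Ranked by p among genes with at least 100 normalized counts and no overlap between groups, 12 genes led in each direction. Those higher in NE included Grin2b, Tnr, Pcdh1, Xkr4, Tmem178b, Hivep3, Helz, Dgkh, Sdk2, Gabrb1 and Cecr6. They are a ranking and not calls, since all but Grin2b had an adjusted p of 0.834. Their log2 fold changes ran from 0.14 to 0.45. With GC content corrected, Cecr6 went from 0.14 to 0.11 and Pcdh1 from 0.19 to 0.16. Xkr4 went the other way, from 0.23 to 0.25, as did Gabrb1, from 0.18 to 0.20. Tnr makes tenascin-R, a glycoprotein of the perineuronal nets, Pcdh1 a protocadherin and Sdk2 the adhesion protein sidekick 2. Gabrb1 encodes the beta 1 subunit of GABA-A receptors, Dgkh a diacylglycerol kinase, Hivep3 a zinc finger transcription factor and Helz an RNA helicase.

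Tnr was at 3278, 3519, 3357 and 3421 in NE and at 3008, 2962, 3095 and 3006 in Water-Ethanol, a log2 fold change of 0.17 (SE 0.035). The distance between the lowest NE mouse and the highest Water-Ethanol mouse was small beside the level itself. Gabrb1 was at 967, 1054, 1027 and 1067 in NE and lay between 895 and 917 in Water-Ethanol, which differ by 0.18 on the log2 scale (SE 0.044). Xkr4, of the XK-related membrane protein family, was at 892, 1048, 995 and 1020 against 835 to 854, with NE replicate 2 again the lowest of the NE mice.

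The 12 leading genes lower in NE included Hif3a, Ddx50, Cp, Kansl1l, Zfp420, F3, Pan3, Casp8ap2, Immp1l, Aox1 and Fgl2, with log2 fold changes between -0.77 and -0.17. With GC content corrected, Ddx50 went from -0.19 to -0.15 and Hif3a from -0.77 to -0.78. Hif3a encodes a member of the hypoxia-inducible factor family (chromosome 7 from 17030993 to 17062427). It was at 152, 83.1, 131 and 120 normalized counts in NE and at 173, 208, 242 and 214 in Water-Ethanol. NE replicate 3 was the lowest and the groups did not overlap. Its log2 fold change was -0.77 (SE 0.15, 95% interval -1.09 to -0.45), with an adjusted p of 0.834 by the quasi-likelihood test. DESeq2 (adjusted p = 0.00979) and edgeR's likelihood-ratio test (adjusted p = 0.00306) called it. Neither limma-voom (adjusted p = 0.830) nor the quasi-likelihood fit of all 16 mice (adjusted p = 0.999) did.

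Among the rest, Cp makes the copper carrier ceruloplasmin of blood plasma and F3 tissue factor, which starts coagulation. Cp was at 748, 759, 771 and 722 in NE and at 844, 947, 865 and 846 in Water-Ethanol, a log2 fold change of -0.23 (SE 0.051). The exons of Cp overlap those of Hps3 on the opposite strand and those of Kansl1l overlap Rpe, and since the use of strand in counting is not stated, reads of each pair cannot be told apart. F3 differed by -0.17. Aox1, an aldehyde oxidase that takes part in turning nicotine into cotinine in the liver, was at 195, 168, 174 and 179 in NE and at 202, 208, 227 and 231 in Water-Ethanol, a log2 fold change of -0.28 (SE 0.083).

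**Figure D2:**
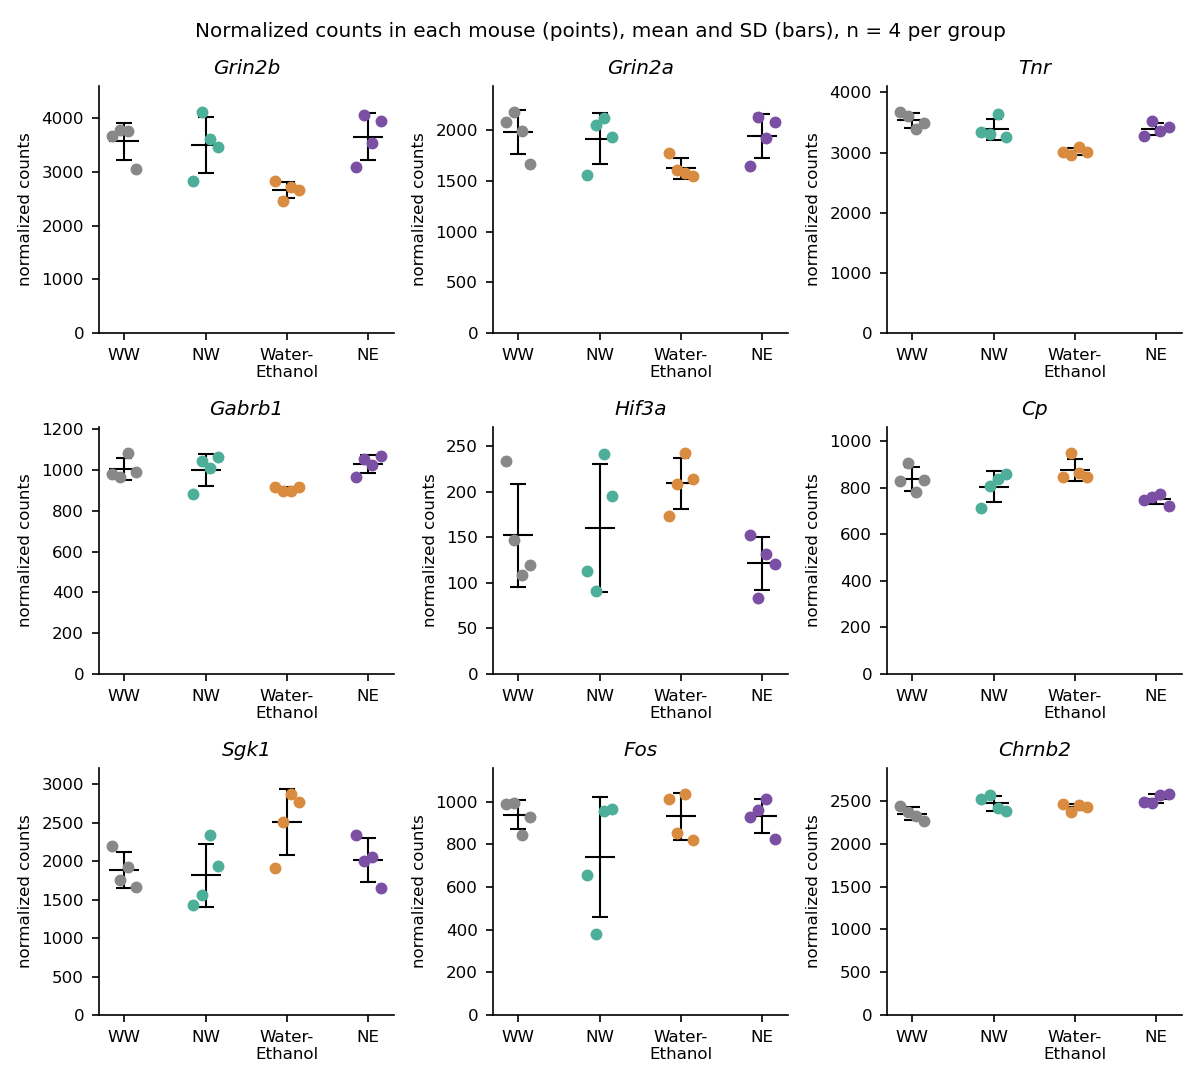
Normalized counts (vertical axis, from 0) of 9 genes in each mouse of the 4 groups, with points for mice and black bars for the mean and SD, n = 4. Grin2b, Tnr and Gabrb1 lie higher and Hif3a and Cp lower in NE than in Water-Ethanol with no overlap, while Grin2a, Sgk1 and Fos overlap.

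The same nicotine contrast without ethanol came from mice that share no animal with it. Between NW and WW, 0 of 15344 genes were called and 8.44% had an unadjusted p under 0.05. Of the 12 genes leading higher in NE, 2 were also higher in NW than in WW, with log2 fold changes from -0.13 to 0.05 there. Of the 12 leading lower, 11 were also lower in NW, from -0.17 to 0.07. In NW against WW, 53.6% of genes were higher and 46.4% lower. Across all 15216 genes tested in both, 53.9% had the same sign, and Pearson's r between the 2 sets of log2 fold changes was 0.0066. For Grin2b the WW mice lay between 3062 and 3773 and the NW mice between 2823 and 4106, and the log2 fold change was -0.03. For Hif3a the WW mice lay between 109 and 234 and the NW mice between 90.8 and 241. Each of these Hif3a ranges overlapped both that of NE and that of Water-Ethanol. NW replicate 10 carried pituitary transcripts (Prl 240.1, against at most 1.01 in NE and Water-Ethanol) and 1194453 normalized counts of Rn45s, and the cerebellar gene Gabra6 was at 1646 in that mouse and at 1066 in WW replicate 21, while WW replicates 18 to 20 held 3953 to 4483. Without NW replicate 10 the numbers of same-signed genes were 1 and 12, and without WW replicate 21 they were 3 and 12, in fits chosen after seeing the data.

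**Figure D3:**
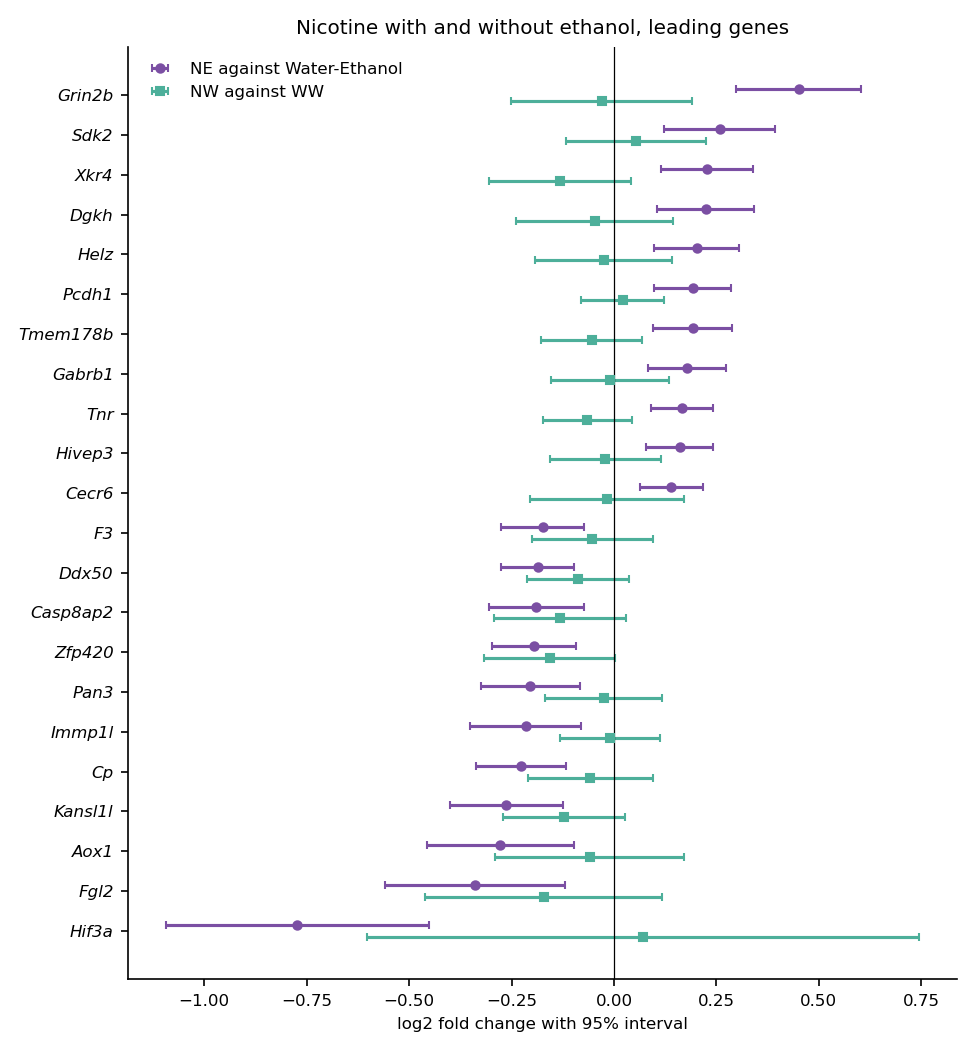
Log2 fold changes with 95% intervals (horizontal axis) of the leading genes named in the text, in purple for NE against Water-Ethanol and in green for NW against WW. The purple values chose the genes; the green values of the upper genes, from Grin2b to Cecr6, lie between -0.13 and 0.05 and those of the lower genes, from F3 to Hif3a, between -0.17 and 0.07.

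Whether nicotine acted differently with and without ethanol was tested as an interaction over all 16 mice. None of 15592 genes was called (smallest adjusted p = 0.577 by edgeR), 6.76% had an unadjusted p under 0.05, and DESeq2 called 2 genes, Serp1 and Snord15b. The interaction of Grin2b was 0.48 on the log2 scale (SE 0.139, adjusted p = 0.651 by edgeR), and that of Hif3a was -0.84 (SE 0.378, adjusted p = 0.718). Since the leading genes were picked on the NE and Water-Ethanol mice, these values lean away from 0 by construction.

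Set beside WW, which both comparisons then share, Grin2b differed by -0.41 in Water-Ethanol and by 0.04 in NE on the log2 scale. The corresponding values were -0.22 and -0.06 for Tnr and 0.47 and -0.30 for Hif3a. For 8 of the 12 leading higher genes the WW mean was nearer to that of NE than to that of Water-Ethanol, and for 4 of the 12 leading lower genes. These genes were picked on their NE and Water-Ethanol values, and the share over all genes was not computed. The counts are therefore no test of whether NE mice were closer to WW.

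In 23 lists of genes tied to nicotine, ethanol, transmitters, stress and activity, 311 different genes were tested, 0 passed the adjusted threshold and 28 (9.0%) had an unadjusted p under 0.05 against 5.8% of all genes. The lists were chosen with earlier results of these data known. Among the 28, Grin2a, Grin2b, Grm3 and Kcnb2 are genes the study names for Water-Ethanol against WW, which uses the same Water-Ethanol mice. Slc6a13 is named there for NE against WW, which uses the same NE mice. Sgk1 is named as a regulator of the genes changed in Water-Ethanol, and Htr2c in a set of co-expressed genes from the whole series. The shares are therefore no test of the lists. The list medians lay between -0.11 and 0.08.

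**Figure D4:**
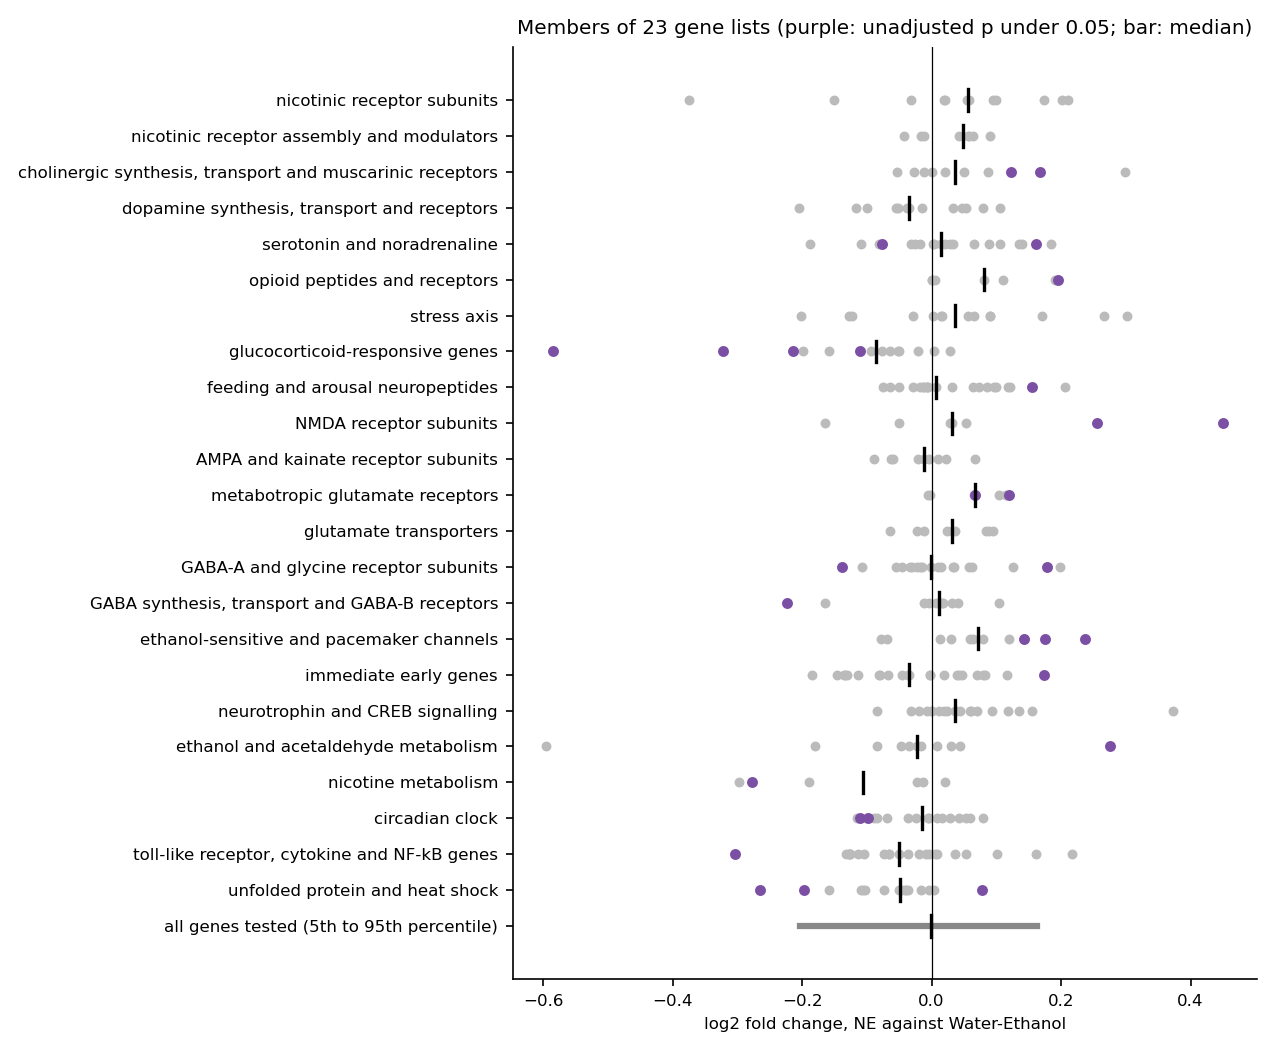
Log2 fold changes, NE against Water-Ethanol (horizontal axis), of the tested members of 23 gene lists, with purple points for an unadjusted p under 0.05 and black bars for list medians, which lie between -0.11 and 0.08. The lowest row gives the 5th to 95th percentile and the median of all genes tested.

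Of 16 nicotinic receptor subunit genes, 12 had enough reads, 9 of them higher and 3 lower in NE, with a median of 0.06 and none at an unadjusted p under 0.05. Chrnb2, the main beta subunit of the brain, was at 2485, 2482, 2566 and 2576 in NE and at 2461, 2376, 2452 and 2427 in Water-Ethanol. The groups did not overlap, yet the log2 fold change was 0.05 (95% interval -0.02 to 0.13), and reads of Adar on the opposite strand may be among them. The partner subunit Chrna4 differed by 0.06 (95% interval -0.05 to 0.16) and Chrna7, which forms receptors on its own, by 0.09 (-0.08 to 0.26). Chrnb4, named for being the only other subunit without overlap, was at 46.3, 47.0, 42.5 and 45.5 in NE and at 39.9, 39.5, 36.6 and 41.3 in Water-Ethanol. No overlap with NE higher was found for 2.04% of all genes tested. The log2 fold change of Chrnb4 was 0.20 (95% interval -0.10 to 0.51). Chrna5, its neighbour in a gene cluster, differed by 0.17 with a wide interval of -0.12 to 0.47. For the 7 subunit genes whose 95% interval lay within 0.5, a change beyond that size lies outside the interval.

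In the acetylcholine list, the muscarinic receptor genes Chrm1 and Chrm3 were higher in NE by 0.12 (SE 0.046) and 0.17 (SE 0.054), both overlapping between groups, and 7 of 10 members were higher. None of the 13 dopamine genes tested had an unadjusted p under 0.05. Among 21 serotonin and noradrenaline genes, the adrenergic receptor gene Adra1b was at 525, 576, 542 and 516 in NE and at 457, 485, 495 and 487 in Water-Ethanol, and the serotonin receptor gene Htr2c differed by -0.08. The delta opioid receptor gene Oprd1 differed by 0.20 (SE 0.080). All 7 opioid peptide and receptor genes had a log2 fold change above 0, with a median of 0.08. A value above 0 was found for 49.5% of all genes tested. Oprk1 (0.0008), Oprl1 (0.0013) and Penk (0.0047) were near no change, and only Oprd1 had an unadjusted p under 0.05.

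The list of ethanol-sensitive and pacemaker channels had 12 genes, 10 of them higher in NE (median 0.07). Kcnma1, the BK potassium channel that ethanol activates, lay between 4272 and 5009 in NE and between 4177 and 4451 in Water-Ethanol, a log2 fold change of 0.14 (SE 0.047). Kcnj6, a G-protein-gated potassium channel subunit, differed by 0.18 (SE 0.059) and the delayed rectifier gene Kcnb2 by 0.24 (SE 0.093). Kcnt1, a sodium-activated potassium channel, differed by -0.08, and its sign turned when Water-Ethanol replicate 15 was left out. Of the GABA-A and glycine receptor genes 9 were higher and 10 lower, among them Gabra6 of cerebellar granule cells at -0.14 (SE 0.045), and the GABA transporter gene Slc6a13 differed by -0.22 (SE 0.088). Among the metabotropic glutamate receptors, Grm3 differed by 0.12 and Grm5 by 0.07, each with an unadjusted p just under 0.05, and Grm4 by 0.11.

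Glucocorticoid-responsive genes stood lower in NE in 12 of 14 tested members (median -0.09 against -0.001 over all genes), 4 of them, all lower, with an unadjusted p under 0.05, which 2.6% of all genes tested reached in that direction. Sgk1, a kinase that the hormone induces (chromosome 10 from 21882184 to 21999902), was at 2340, 1998, 2058 and 1645 in NE and at 1911, 2502, 2865 and 2763 in Water-Ethanol. Water-Ethanol replicate 13 lay within the NE range and the other Water-Ethanol mice above it. The log2 fold change was -0.32 (SE 0.114, adjusted p = 0.834 by edgeR). Fkbp5, a chaperone of the receptor, differed by -0.21 (SE 0.084), the lipid droplet gene Plin4 by -0.58 (SE 0.218) and the clock gene Per1 by -0.11 (SE 0.048), and all 3 overlapped between groups. Beside WW the list median was 0.12 in Water-Ethanol and 0.03 in NE, which share those controls. Of 14 stress axis genes tested, 10 were higher in NE and none had an unadjusted p under 0.05. Avp, the vasopressin gene, was at 283, 342, 292 and 168 in NE and at 160, 164, 335 and 219 in Water-Ethanol, which overlapped.

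Of 18 unfolded protein and heat shock genes, 16 were lower in NE (median -0.05). The inducible chaperone gene Hspa1b differed by -0.27 (SE 0.104), though it shares reads with its near-identical copy Hspa1a, and the small heat shock gene Hspb1 by -0.20 (SE 0.091), while the stress sensor gene Atf6 differed by 0.08. Among 18 clock genes, Bhlhe40 differed by -0.10 along with Per1. In the toll-like receptor and cytokine list 16 of 23 were lower in NE and Tlr7 differed by -0.30 (SE 0.12). The acetaldehyde-oxidizing gene Aldh1b1 differed by 0.28 (SE 0.103), and the appetite peptide gene Npy by 0.16 (SE 0.070).

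Genes switched on by neuronal activity had a median log2 fold change of -0.04. Of these 23 immediate early genes, 9 were higher and 14 lower in NE. All 23 had a 95% interval within 0.5, as had 86.2% of all genes tested. The intervals of Dusp1 (-0.43 to 0.13), Klf4 (-0.41 to 0.04) and Junb (-0.12 to 0.36) still reach the size of leading differences above. Fos was at 930.4, 961, 1014 and 824 in NE and at 1014, 855, 1034 and 822 in Water-Ethanol, with a 95% interval from -0.17 to 0.17. Arc differed by -0.13, Nr4a1 by -0.05 and Fosb by -0.04, and all 3 turned sign when single mice were left out. Homer1 was the only one with an unadjusted p under 0.05, at 0.17 (SE 0.064). Among other genes of interest in these groups, Cav2 (95% interval -0.11 to 0.10), Il16 (-0.13 to 0.14) and the insulin receptor substrate gene Irs2 (-0.06 to 0.20) were narrowly bounded around no change, Il20rb (-0.41 to 0.19) and Pomc (-0.61 to 0.36) less so.

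The following genes, named for the size of their log2 fold change, had few reads. Hoxb8, a homeobox gene of the spinal cord, was at 0 to 1.09 in 4 of the 8 mice and at up to 58.3 in the others, in both groups. Further large decreases, 1700001P01Rik and Fgl1, and the large increases, Pcdh12, 4931408D14Rik, Fam83f and Siglec5, had means of at most 22.9 normalized counts in either group. Over all edgeR, DESeq2 and limma settings the smallest adjusted p among these genes was 0.0859, for 1700001P01Rik.

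Marker genes of brain regions and cell types were set beside these values. All 12 cerebellar granule cell markers were tested, with a summed level of 40756 to 46140 in NE and 38905 to 44652 in Water-Ethanol. Of these, Neurod1 (-0.13), Barhl1 (-0.22) and Gabra6 were lower in NE and Cbln1 (0.12) higher, each with an unadjusted p under 0.05, and the Purkinje cell marker Ppp1r17 differed by -0.14. Over all genes tested, 2.6% were lower and 3.2% higher in NE with an unadjusted p under 0.05. In the cortex list, with sums of 20468 to 21793 in NE and 19675 to 20810 in Water-Ethanol, Tbr1 (0.11) was higher with an unadjusted p under 0.05. In the hippocampus list Iyd (0.56) and Mpped1 (0.11) were higher, with sums of 9879 to 10699 and 9173 to 10053. None of the microglia, astrocyte, oligodendrocyte and endothelial markers had an unadjusted p under 0.05, while 11 of the 12 myelin genes were higher in NE (median 0.03). Nor did any of the choroid plexus markers, 11 of 12 lower in NE (median -0.06), or of the thalamus markers, 7 of 8 lower (median -0.04). Of the mural and meningeal markers 8 of 12 were lower (median -0.04), with an unadjusted p under 0.05 for Slc6a13 alone, the GABA transporter gene given above, which meningeal cells also express. The adult haemoglobin genes are listed at 0 counts in all 8 mice. For Hbb-bt, 1 of them, the deposited FPKM values lay between 11.6 and 25.2 in NE and between 15.5 and 23.8 in Water-Ethanol, so its counts carry no measure of blood in the tissue. The olfactory epithelium list was represented by 5 of 8 genes, of which Adcy3, which neurons also express widely, differed by 0.11. Pituitary markers were at or near 0 (summed level at most 15.9), with Gh at 0 in all 8 mice. A fit with cerebellar granule cell and olfactory bulb scores as covariates gave log2 fold changes of 0.46 for Grin2b, -0.76 for Hif3a and -0.31 for Sgk1. Between NE and Water-Ethanol those mean scores differed by only -0.01 and 0.04 on the log2 scale. The cortex and hippocampus scores, which differed by 0.05 and 0.10, were not in the fit. The part that regional makeup plays in the differences above was not tested further.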

How the data were processed

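Gene expression was measured by RNA-seq of whole brains in 16 mice, of which the 8 NE and Water-Ethanol mice enter the comparison described. Per the labels, libraries were read as 150 nt single reads; the submitters' processing notes name bcl2fastq 1.8.4, FastQC, Trimmomatic 0.32, TopHat2, Cufflinks and the mm10 build. The authors deposited whole read counts per gene, not normalized, and FPKM values per gene, which were used only in alternatives. The counting program and its use of strand are not given in the sources used here, and labels and methods name different versions of the library kit.

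Counts were tested with edgeR 4.0.16 in R 4.3.3 (TMM factors, default filter on low counts, quasi-likelihood test, Benjamini-Hochberg threshold of 0.05) in a fit of the 8 mice, and the interaction in a fit of all 16. Each standard error was derived from the estimate and the F statistic of its test. Normalized counts are scaled by TMM factors to the median library size; with n = 4 the SD covers mice only, and whether each group's mice shared litters is not stated. Alternatives were RLE and upper-quartile factors, DESeq2 1.42.0, edgeR's likelihood-ratio test, limma-voom (limma 3.58.1), 2 other filters, a fit of all mice, limma on log2(FPKM + 1), with and without a filter on low values, and on log2(FPKM + 0.1), marker score covariates, a GC correction and each mouse left out. Scripts were tested on simulated data, and figures drawn with matplotlib 3.10.9.

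The genes named are those with an adjusted p under 0.05 (none), the 12 smallest p in each direction among genes with at least 100 normalized counts and no overlap between groups, the 4 largest log2 fold changes in each direction, up to 4 members of each list with an unadjusted p under 0.05 or else its smallest, and genes the study discusses; others are named for a known role, and Chrnb4 after its values were seen. Some genes that meet these rules are not reported here. Members and lists were chosen with earlier results of these data known. Fits without NW replicate 10 or WW replicate 21 were chosen after seeing the data. Positions are those of the deposited count table.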

Additional observations from a re-analysis of the deposited data

Results flagged for a closer look

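Within groups of 4 mice, a single mouse stood apart from the other 3 of its group in 7 of the 160 groups examined (80 genes in NE and Water-Ethanol), and chance flags about 1 in 20. Siglec5 was at 7.65 in NE replicate 3, below 11.8 to 12.1 in the others, and Neurod1 at 2554 in NE replicate 2, above the other NE mice. Grm4 was at 4800.2 in NE replicate 5, above 4093 to 4175 in the others. In Water-Ethanol, Chrm1 was at 3601 in replicate 15, Chrm3 at 1199 and Homer1 at 6743 in replicate 16, and Fosb at 298 in replicate 14.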

How the results depend on the processing

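The count of called genes was 0 in 14 of the 21 alternatives. DESeq2 and edgeR's likelihood-ratio test each called 2 genes, Grin2b and Hif3a, and the fit with no filter on low counts called 1, Grin2b. Each of the 3 limma fits of FPKM called 1, Hist1h2bj, which is listed at 0 FPKM in every NE mouse and at 0.30 to 0.32 in Water-Ethanol but has 0 to 4 counts in both. Leaving out 1 mouse gave 0 to 1 called genes, the 1 being Grin2b without NE replicate 2. The genes with an unadjusted p under 0.05 numbered 564 without NE replicate 3 and 1503 without NE replicate 2, the lowest and highest of those fits, and 612 to 1160 in the other alternatives. DESeq2 called 2 genes in the interaction, Serp1 and Snord15b, and no fit without 1 mouse called any. Of 80 genes followed, 72 kept their sign in every alternative. With GC content corrected Il16 was at -0.0058 and Cav2 at 0.027, and Fos was at 0.00042 with limma-voom and 0.0031 with marker scores as covariates. Leaving out single mice gave -0.28 to 0.016 for Pomc, -0.14 to 0.011 for Fosb, -0.15 to 0.0011 for Kcnt1, -0.056 to 0.040 for Il16, -0.24 to 0.0089 for Arc, -0.059 to 0.052 for Fos, -0.10 to 0.054 for Nr4a1 and -0.044 to 0.028 for Cav2. The cause was not tested. No paired analysis was possible because the groups share no replicate numbers. The 8 libraries held 27100352 to 31919838 counts. Intervals or standard errors stand beside some of the differences, and these show what that depth and 4 mice per group resolve.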
